A study of Homo sapiens with 6 samples.

Results

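The ERBB receptors and their EGF-like ligands were followed in T47D cells, an established luminal-like human breast cancer cell line, after culture in hypoxia or normoxia. The 10 genes were taken by symbol from the 27754 genes of the count files. They comprised 4 receptors (EGFR, ERBB2, ERBB3 and ERBB4) and 6 ligands (AREG, EREG, HBEGF, TGFA, BTC and NRG1). RNA was sequenced from 3 libraries of T47D cells kept at 20% O2 (normoxia) and 3 libraries kept at 0.5% O2 for 48 h (hypoxia; the labels give no time for normoxia), all grown adherently in RPMI medium with serum. The study's text gives another O2 level for hypoxia than the labels, and the label is used here. All libraries came from this 1 cell line, and the labels name no genetic change or drug in either group. The labels do not say whether replicates were separate cultures, while the study describes its data as independent experiments, and p-values measure the spread between these libraries.

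The ERBB receptors are receptor tyrosine kinases that act as pairs on the cell surface. Ligands are made as membrane-bound precursors and are cut free by sheddases of the ADAM family. AREG, EREG, HBEGF, TGFA and BTC bind EGFR, with EREG, HBEGF and BTC also binding ERBB4, while NRG1 binds ERBB3 and ERBB4. ERBB2 has no known ligand of its own and is the preferred partner of the others, and ERBB3 has a weak kinase and signals mainly through its partner, largely to PI3K. In luminal breast cells these receptors feed the RAS-MAPK and PI3K-AKT pathways, and AREG is a known target of the estrogen receptor.

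The identity of the counted sequence matters most for AREG (chr4:75310815-75490485, GRCh37), because the counted gene holds 2 copies of itself. Each copy has 6 exons and 1276 exon bases, and the copies differ at 1 of these bases. That base is in exon 1, and it is G278A, counted from 1 at the 5′ end of the exon with the base of the first copy given first. The sequences around it are shown, on the forward strand of GRCh37, because this is the only exon base at which the copies differ, and it is given in capitals.
AREG copy 1 (chr4:75311079-75311105): taccgccggcgccGgtggtgctgtcgc
AREG copy 2 (chr4:75480855-75480881): taccgccggcgccAgtggtgctgtcgc
Of the 100-base windows of the joined exons of the first copy, 91.5% occur unchanged in the second. The treatment of reads with several matches is not given in the sources used here, so AREG counts are uncertain, and its level per kilobase rests on the summed length of both copies.

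The other members lie at single loci. EGFR is at chr7:55086714-55275773 and shares 186 exon bases with EGFR-AS1, which had at most 9 counts in any library. ERBB2 is at chr17:37844337-37884915, and the last 163 bases it shares with MIEN1 on the opposite strand make up 2.97% of its exon length. The strand setting of the counting is not given in the sources used here, so reads from that stretch cannot be assigned with certainty. ERBB3 is at chr12:56473809-56497291, ERBB4 at chr2:212240442-213403352, TGFA at chr2:70674412-70781147, HBEGF at chr5:139712428-139726188, EREG at chr4:75230860-75254477 and BTC at chr4:75669970-75719896. All 10 members are protein-coding genes in GENCODE.

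ERBB3 and NRG1 were left out of the promoter search, so whether they hold the motifs below was not tested. Promoter sequences of 300 bases, most of them before the transcription start (RefSeq on GRCh38.p14), were used for the other 8 genes. They were searched on both strands for the hypoxia response element core, spelled ACGTG or GCGTG, which HIF proteins are known to bind and which reads on both strands where it forms CACGTG. The core was in 48.4% of the 35116 promoters of this length that were searched, each counted singly. By gene, at any start site, it was found for 6 of these 8 members (AREG, BTC, ERBB4, EREG, HBEGF and TGFA). These figures are not in like units, since TGFA and EGFR have 2 start sites each. The first start site of TGFA holds no core. For EGFR, with 2 start sites, and for ERBB2 these letters are not in the windows. AREG holds 2 cores spelled GCGTG, and EREG holds 1 of each spelling. Neither AREG nor EREG was called higher in hypoxia, and their core stretches are not printed. ERBB4 was not called higher either and is printed, so the printed stretches do not set genes that rose apart from the others. The stretches below are printed 5′ to 3′ on the strand of the gene, with the core in capitals (CACGC where it lies on the other strand), for 3 genes whose RNA was higher in hypoxia and for ERBB4, which did not pass the test without the replicate block. The second start site of TGFA holds the core 51 bases before the start, BTC 94 bases before it and ERBB4 19 bases before it, while in HBEGF it follows the start.
TGFA (chr2:70553482-70553507, minus strand): cctgggccgtGCGTGagaacacctgg
HBEGF (chr5:140346563-140346588, minus strand): ctacgcgggcCACGCtgctggctggc
BTC (chr4:74794602-74794627, minus strand): ggtgggagcaGCGTGgaggctcccag
ERBB4 (chr2:212538806-212538831, minus strand): agcgaaggctCACGCggggaaatagc
The AREG promoter also holds the palindromic cAMP response element TGACGTCA, 65 bases before the start, which was in 1.85% of the promoters searched. It is shown because it is the rarest of the motifs searched. The AP-1 motif TGANTCA, in 7.71% of the promoters searched, was found for ERBB2 and for the second start site of EGFR.
AREG (chr4:74445062-74445087, plus strand): gccgggcctTGACGTCAtgggctgcg
Such matches describe letters and were not tested as binding sites.

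The libraries held between 32989104 and 89883409 counts, and hypoxia replicate 3 was the deepest. All 9 luminal epithelial markers checked were counted in every library. Levels are counts scaled to a common library size with TMM factors, or CPM. The luminal markers summed to 13959 to 18121 CPM in normoxia and 10193 to 13471 CPM in hypoxia. Immune markers summed to at most 4.29 CPM and endothelial markers to at most 0.656 CPM. Fibroblast markers summed to 77.4 to 99.7 CPM, nearly all of it COL1A1 (76.9 to 99.1 CPM), with PDGFRA at 0 in every library. Of the 10 hypoxia response genes checked, 10 were higher in hypoxia. Both libraries numbered 3 stood apart from the others in a principal component that held 10.4% of the variance. They also held most of the vimentin (VIM) counts, with 395 in normoxia and 1001 in hypoxia against at most 35 elsewhere. Of the other basal or mesenchymal-like markers, MSN, CAV1, CAV2, SPARC and GSTP1 likewise had their highest CPM in these libraries. MSN was at 1.94 CPM in normoxia replicate 3 and 1.82 CPM in hypoxia replicate 3, against at most 0.547 CPM elsewhere. AXL, ANXA1, LGALS1, KRT5, KRT14, KRT17 and TP63 did not have this pattern. The summed level of all 13 basal or mesenchymal-like markers was 191 to 208 CPM in normoxia and 231 to 312 CPM in hypoxia, highest in hypoxia replicate 3. Most of this sum was LGALS1 (181 to 189 CPM in normoxia and 188 to 247 CPM in hypoxia), which was not called. Of the 13 markers 10 were tested, 3 of them higher and 0 lower (0 lower at an unadjusted p under 0.05 and 0 in DESeq2 beside edgeR's test). The shares over all tested genes were 30.4% higher and 29.1% lower. Among the 3, KRT17 passed the filter on low counts only through its hypoxia libraries. With the replicate block 5 were higher, and the part of these markers in the results below was not tested.

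Per kilobase of counted exon, ERBB3 had the highest level of the 10 genes in both conditions and ERBB2 the next. In normoxia, ERBB3 was at 60.2 ± 7.12 and ERBB2 at 38.7 ± 3.84 CPM per kilobase (SD, n = 3), and the library ranges of these genes did not overlap with each other or with the rest. AREG (6.80 ± 2.75), EREG (3.64 ± 1.94), TGFA (3.51 ± 0.596) and EGFR (3.31 ± 0.390) followed as a group in which each overlapped with the next. ERBB4 (1.38 ± 0.665) and HBEGF (1.02 ± 0.211) overlapped with each other, BTC was at 0.163 ± 0.0331, and NRG1 was lowest at 0.0123 ± 0.00279. In hypoxia the order after ERBB3 (51.5 ± 3.77) and ERBB2 (27.9 ± 4.17) became TGFA (16.2 ± 0.903), EGFR (9.53 ± 1.73) and AREG (6.17 ± 1.98), whose ranges did not overlap with their neighbours. EREG (2.62 ± 1.03) and HBEGF (2.28 ± 0.112) overlapped, as did ERBB4 (0.806 ± 0.308) and BTC (0.481 ± 0.225). The place of AREG in either order is uncertain, since it rests on uncertain counts and on the summed length of both copies.

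**Figure D1:**
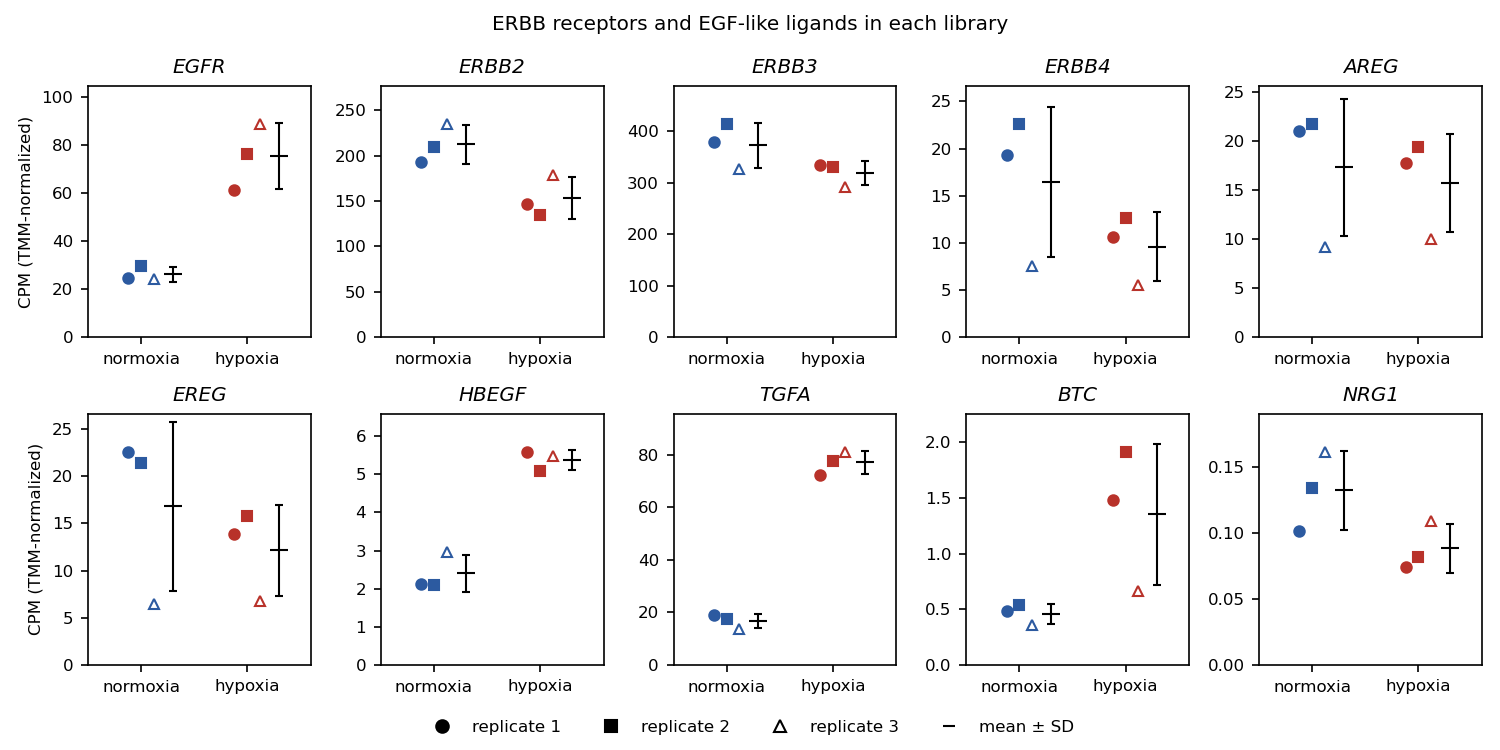
Level of each of the 10 genes in each library, as CPM (counts scaled to library size with TMM factors; y axes start at 0 and differ between panels), by condition and replicate number, with the mean and SD of 3 libraries in black. EGFR, HBEGF, TGFA and BTC were higher in every hypoxia library than in any normoxia library, ERBB2 was lower in every hypoxia library, and both replicate 3 libraries (open triangles) were low for ERBB4, AREG and EREG.

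The comparison of hypoxia with normoxia asked how low O2 changed the RNA of these cells. Of the 10 genes, 9 passed the filter on low counts and entered edgeR's quasi-likelihood test, fitted across all 15657 genes that passed. EGFR, TGFA, HBEGF and BTC were higher in hypoxia, ERBB2 was lower, and ERBB3, ERBB4, AREG and EREG did not pass an adjusted p of 0.05. Against these 4 higher and 1 lower of 9, the test called 30.4% of all tested genes higher and 29.1% lower, so that 59.5% were called in either direction. The ranges of the conditions did not overlap for those same 5 genes, against 67.3% of all tested genes (34.9% higher and 32.4% lower). The median log2-fold change (hypoxia over normoxia) of the 9 genes was -0.15, and that of all tested genes was 0.03.

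With the replicate number as a block, 4 of the 9 genes were higher and 4 lower, against 36.6% and 35.2% of all tested genes (71.8% in either direction). The added decreases were ERBB3, ERBB4 and EREG. In bulk RNA, a change in every cell and a change in the share of cells that express a gene cannot be told apart.

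EGFR, the receptor shared by most of the ligands, was at 24.8, 29.7 and 24.0 CPM in normoxia replicates 1, 2 and 3 and at 61.3, 76.4 and 88.7 CPM in hypoxia replicates 1, 2 and 3. Every hypoxia library was above every normoxia library. The means were 26.2 ± 3.09 and 75.5 ± 13.7 CPM (SD, n = 3), which in the fit was 1.53 on the log2 scale (SE 0.15, adjusted p = 1.74e-04). The rise was 2.48-fold, 2.57-fold and 3.69-fold within the libraries numbered 1, 2 and 3. It was largest in the pair with the high VIM counts, and without that pair the log2-fold change was 1.34 (adjusted p = 5.89e-08). Relative to the other receptors, the EGFR level per kilobase was 0.0711 to 0.0982 of that of ERBB2 in normoxia and 0.291 to 0.394 in hypoxia.

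ERBB2 (HER2), the receptor without a ligand, was at 193, 210.2 and 235 CPM in the normoxia replicates and at 147, 135 and 179 CPM in the hypoxia replicates. All hypoxia libraries were below all normoxia libraries, with the narrowest gap between hypoxia replicate 3 and normoxia replicate 1. The means were 213 ± 21.1 and 153 ± 22.9 CPM (SD, n = 3), which in the fit was -0.47 on the log2 scale (SE 0.12, adjusted p = 0.0118). The call was lost without both libraries numbered 1 (-0.51, adjusted p = 0.0677) or 2 (-0.40, adjusted p = 0.0791) and kept without both numbered 3 (-0.51, adjusted p = 6.41e-06). MIEN1, which overlaps the end of ERBB2 on the other strand, was also lower, with a log2-fold change of -0.89 (adjusted p = 0.00317).

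ERBB3, a receptor for NRG1, was at 379, 414 and 326 CPM in the normoxia replicates and at 335, 329.9 and 292 CPM in the hypoxia replicates. The conditions overlapped, because normoxia replicate 3 was below hypoxia replicates 1 and 2. The log2-fold change was -0.23 (95% confidence interval -0.47 to 0.02, adjusted p = 0.0965). It was -0.22 with the replicate number as a block (adjusted p = 0.00755), each hypoxia library being below the normoxia library of its number. Without normoxia replicate 3, the log2-fold change was -0.32 (adjusted p = 0.0225), and without both libraries numbered 3 it was -0.25 (adjusted p = 0.00184). With upper-quartile factors it was -0.07 (adjusted p = 0.638), and of the omissions the one nearest to 0 was -0.16, without normoxia replicate 2 (adjusted p = 0.244).

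ERBB4, a receptor for neuregulins as well as for several EGFR ligands, was at 19.3, 22.6 and 7.49 CPM in the normoxia replicates and at 10.6, 12.7 and 5.54 CPM in the hypoxia replicates. Replicate 3 was the lowest library of each condition, and normoxia replicate 3 lay below hypoxia replicates 1 and 2. The log2-fold change of -0.79 had a standard error of 0.42 (95% confidence interval -1.77 to 0.19, adjusted p = 0.139). Within the libraries numbered 1, 2 and 3, hypoxia was at 0.551, 0.561 and 0.739 of normoxia. With the replicate block the log2-fold change was -0.72 (SE 0.11, adjusted p = 5.45e-04), and without both libraries numbered 3 it was -0.84 (adjusted p = 1.35e-05). Without normoxia replicate 3 alone it was -1.15 (adjusted p = 0.0145), whereas it was -0.51 without normoxia replicate 2 (adjusted p = 0.365) or without hypoxia replicate 3 (adjusted p = 0.307).

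**Figure D2:**
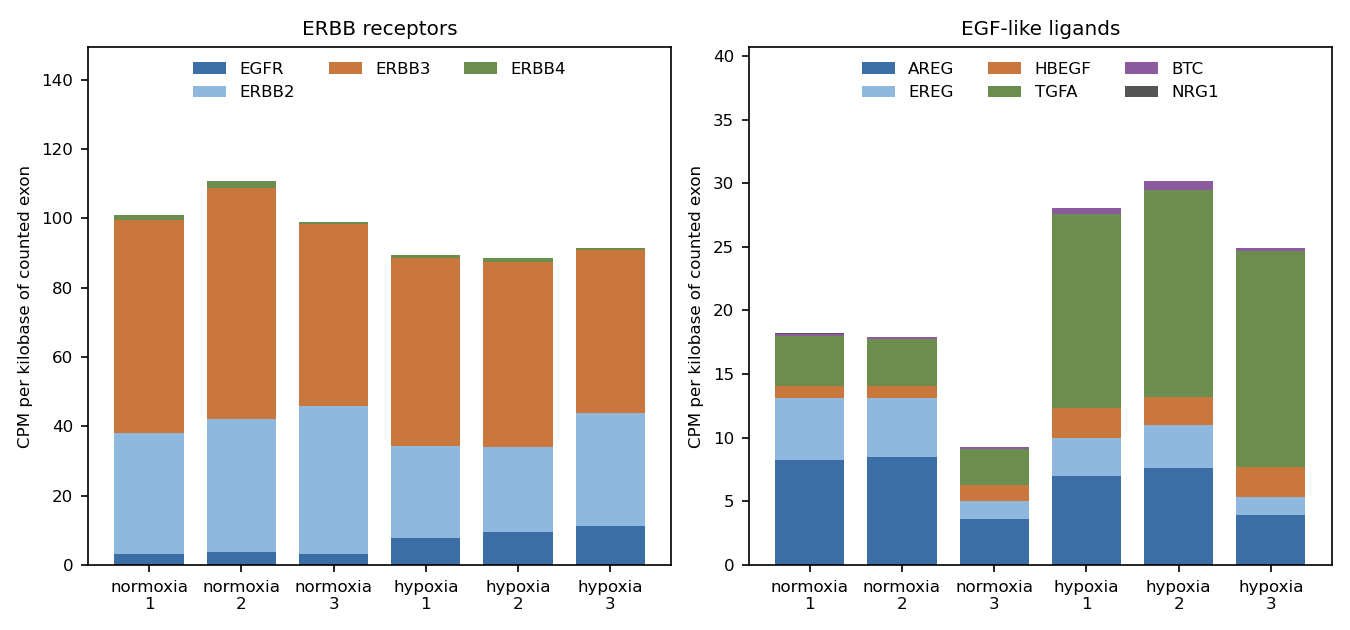
Summed level of the receptors (left) and ligands (right) in each library, in CPM per kilobase of counted exon, with each gene as a coloured segment of the bar. The AREG segment rests on uncertain counts and on the summed length of both copies. The receptor sum lay between 99.03 and 110.7 in normoxia and between 88.5 and 91.4 in hypoxia and was mostly ERBB3 and ERBB2, whereas the ligand sum lay between 9.27 and 18.2 in normoxia and between 24.9 and 30.2 in hypoxia, where TGFA was the tallest segment.

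Summed per kilobase, the receptors were at 101, 110.7 and 99.03 CPM per kilobase in the normoxia replicates and at 89.4, 88.5 and 91.4 in the hypoxia replicates. The receptor pool was thus lower in every hypoxia library with TMM factors, by a small margin. With upper-quartile factors this order was not kept, as the sum of normoxia replicate 3 was then below those of the hypoxia libraries. EGFR made up 3.18% ± 0.18 of this pool in normoxia and 10.6% ± 1.81 in hypoxia (SD, n = 3). ERBB3 held 58.1% ± 4.22 and 57.5% ± 5.04, with overlapping ranges, and ERBB2 held 37.4% ± 4.91 and 31.0% ± 4.10, also with overlapping ranges. These shares are descriptions and were not tested.

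TGFA, which encodes transforming growth factor alpha, an EGFR ligand, had the largest change of the 9 tested genes. It was at 19.0, 17.6 and 13.5 CPM in the normoxia replicates and at 72.4, 77.6 and 80.9 CPM in the hypoxia replicates. The conditions were far apart relative to the spread within either. The means were 16.7 ± 2.84 and 77.0 ± 4.30 CPM (SD, n = 3), which in the fit was 2.20 on the log2 scale (SE 0.13, adjusted p = 3.94e-05). Within the numbered pairs the rise was 3.81-fold, 4.41-fold and 5.98-fold.

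HBEGF, heparin-binding EGF-like growth factor, was at 2.13, 2.10 and 2.97 CPM in the normoxia replicates and at 5.58, 5.08 and 5.48 CPM in the hypoxia replicates. These levels rested on 78 to 92 counts per normoxia library and 186 to 501 per hypoxia library. The log2-fold change was 1.17 (SE 0.19, adjusted p = 0.00126). Normoxia replicate 3 was the highest normoxia library, and the rise was smallest in that pair, at 1.84-fold against 2.62-fold and 2.43-fold.

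BTC, betacellulin, was near the limit of what was tested, its counts being 19, 20 and 11 for normoxia and 60, 70 and 61 for hypoxia. Its level was 0.481, 0.537 and 0.355 CPM in normoxia and 1.48, 1.91 and 0.667 CPM in hypoxia. Hypoxia replicate 3 was the lowest hypoxia library and still lay above all normoxia libraries. The log2-fold change was 1.51 (SE 0.43, adjusted p = 0.0172). The call was lost without hypoxia replicate 1 (adjusted p = 0.0525) or hypoxia replicate 2 (adjusted p = 0.0592), and without both libraries numbered 1 (adjusted p = 0.107) or 2 (adjusted p = 0.0828).

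EREG, epiregulin, was at 22.6, 21.4 and 6.49 CPM in the normoxia replicates and at 13.9, 15.8 and 6.73 CPM in the hypoxia replicates. Both replicate 3 libraries were low and close to each other, while in the other pairs hypoxia was at 0.616 and 0.738 of normoxia. The log2-fold change was -0.49 (95% confidence interval -1.57 to 0.59, adjusted p = 0.394). It was -0.39 with the replicate block (adjusted p = 0.0334), -0.56 without both libraries numbered 3 (adjusted p = 1.37e-04) and -0.88 without normoxia replicate 3 (adjusted p = 0.0444). It was closer to 0 without hypoxia replicate 3 (-0.19, adjusted p = 0.732), normoxia replicate 1 (-0.22, adjusted p = 0.747), normoxia replicate 2 (-0.29, adjusted p = 0.665) or both libraries numbered 1 (-0.32, adjusted p = 0.694).

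AREG, amphiregulin, was at 21.1, 21.7 and 9.24 CPM in the normoxia replicates and at 17.8, 19.4 and 9.99 CPM in the hypoxia replicates. As for EREG and ERBB4, the replicate 3 library was the lowest of each condition. The conditions overlapped, with a log2-fold change of -0.15 (95% confidence interval -0.96 to 0.66, adjusted p = 0.728) and of -0.10 with the block (adjusted p = 0.347). The direction depended on the library, as the third pair had a ratio of 1.08 and the others of 0.847 and 0.893, and on the scaling, as upper-quartile factors gave 0.00. The 95% confidence interval with the block was -0.32 to 0.11. Without both libraries numbered 3, the log2-fold change was -0.20 (adjusted p = 0.0669). A change of AREG of either sign was thus not detected, in counts that are uncertain for the reason given above.

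NRG1, neuregulin 1 (chr8:31497268-32625475), was read 4, 5 and 5 times in normoxia and 3, 3 and 10 times in hypoxia. In the deepest library 10 counts corresponded to 0.109 CPM. NRG1 was therefore too low to be tested, and a change was not detectable at this depth.

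**Figure D3:**
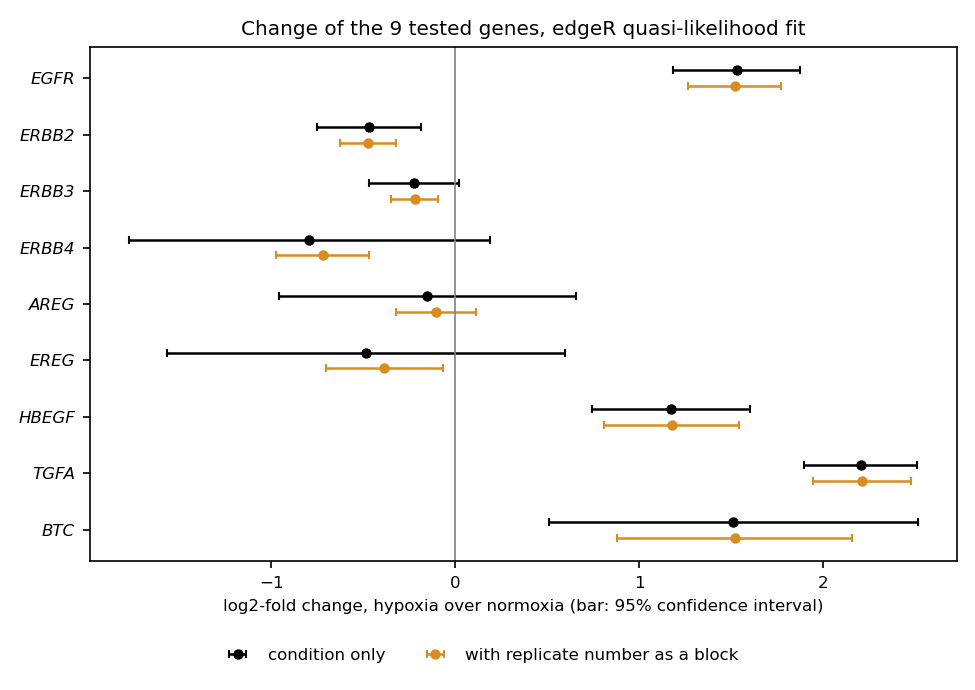
Log2-fold change (hypoxia over normoxia) of the 9 tested genes from edgeR's quasi-likelihood fit, as points with 95% confidence intervals, with condition as the only term (black) and with the replicate number as a block (orange). The intervals of EGFR, ERBB2, HBEGF, TGFA and BTC leave out 0 in both fits, whereas those of ERBB3, ERBB4 and EREG leave out 0 only with the block and that of AREG in neither.

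The make-up of the ligand pool is given as a description, with no test. All sums and shares of the pool depend on AREG, whose counts are uncertain and whose length is that of both copies. Summed per kilobase, the 6 ligands were at 18.2, 17.9 and 9.27 CPM per kilobase in the normoxia replicates and at 28.1, 30.2 and 24.9 in the hypoxia replicates. TGFA made up 24.4% ± 5.47 of the sum in normoxia and 58.8% ± 8.14 in hypoxia (SD, n = 3), whereas AREG went from 43.97% ± 4.38 to 21.9% ± 5.40 and EREG from 22.6% ± 6.46 to 9.28% ± 3.01. The level of TGFA was 0.798 to 2.02 times that of EREG in normoxia and 4.77 to 11.7 times in hypoxia, the upper value of each condition being replicate 3. Among the 5 tested ligands 3 were higher and 0 lower by edgeR's quasi-likelihood test, with 0 lower at an unadjusted p under 0.05 and 0 lower in DESeq2, beside 30.4% of all tested genes higher and 29.1% lower. With the replicate block 3 were higher and 1, EREG, was lower.

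EREG, AREG and BTC lie next to each other on chromosome 4, together with EPGN, which encodes epigen, another EGFR ligand. EPGN was at 5.95, 5.03 and 1.87 CPM in the normoxia replicates and at 6.77, 4.18 and 8.31 CPM in the hypoxia replicates. Its log2-fold change was 0.58 (SE 0.41, adjusted p = 0.245). Of these 4 genes, BTC was called in the fit without the block, and BTC and EREG with it. Around ERBB2 on chromosome 17, 2 of 7 listed neighbours were higher and 1 was lower. Over all 10 tested neighbours within 200 kb, 3 were higher and 2 lower, the additional ones being GSDMB (1.46, adjusted p = 8.53e-04) and CDK12 (-0.32, adjusted p = 0.0115). Both counts of neighbours stand beside 30.4% of all tested genes higher and 29.1% lower. GRB7, an adaptor that binds ERBB2, rose from 24.2 ± 2.39 to 32.1 ± 3.66 CPM (SD, n = 3), which in the fit was 0.41 on the log2 scale against -0.47 for ERBB2. The GRB7 call was lost without normoxia replicate 1 (adjusted p = 0.0727) or 2 (adjusted p = 0.0664), and without both libraries numbered 1 (adjusted p = 0.0761) or 2 (adjusted p = 0.128).

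Other genes of the pathway were read from lists, of which 82 genes were tested, 28 higher and 23 lower. These counts stand beside the 30.4% and 29.1% of all tested genes called higher and lower, and the median log2-fold change was 0.19. With the replicate block 35 were higher and 25 lower. Of the 3 other ligands tested, NRG4, a ligand of ERBB4, rose from 1.502 ± 0.434 to 4.52 ± 0.271 CPM (SD, n = 3), which in the fit was 1.59 on the log2 scale (adjusted p = 7.63e-04). EGF and EPGN did not pass, and NRG2 and NRG3 were too low to test. EGF itself was at 7.35 ± 0.675 and 6.66 ± 1.43 CPM.

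Of the 7 genes for ligand release, 4 were higher and 0 lower by edgeR's quasi-likelihood test (0 lower at an unadjusted p under 0.05 and 0 in DESeq2). Over all tested genes 30.4% were higher and 29.1% lower. ADAM17, the main sheddase of TGFA, HBEGF and AREG, rose from 44.5 ± 2.10 to 64.9 ± 4.93 CPM (SD, n = 3), with a log2-fold change of 0.55. ADAM19, a metalloprotease that can cut neuregulins, rose from 1.29 ± 0.541 to 5.70 ± 0.410 CPM, with a log2-fold change of 2.12. The others called were ADAM10, the main sheddase of betacellulin and EGF, and ADAM12, which had under 0.1 CPM in each normoxia library. ADAM12 passed the filter on low counts only through its hypoxia libraries, so it could only be called higher.

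Of the 8 tested receptor partners 1 was higher and 3 were lower, beside 30.4% and 29.1% of all tested genes. With the replicate block 3 were higher and 4 lower, beside 36.6% and 35.2% of all tested genes. The added genes were CD44 and ERBIN (higher) and CD9 (lower). HSP90AA1, a chaperone that keeps ERBB2 stable, fell from 4283 ± 759 to 1595 ± 189 CPM (SD, n = 3), which in the fit was -1.42 on the log2 scale (adjusted p = 2.14e-04). HSP90AB1, its constitutive relative, fell from 2871 ± 193 to 2222 ± 84.5 CPM (-0.37 on the log2 scale). The HSP90AB1 call was lost with upper-quartile factors (adjusted p = 0.0655) and without both libraries numbered 1 (adjusted p = 0.134). CDC37, the kinase co-chaperone, was the third lower gene, and MUC4, a mucin that can bind ERBB2, was the higher gene at under 1 CPM. MUC4 passed the filter on low counts through its hypoxia libraries, so it could only be called higher.

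Among 10 receptor inhibitors 6 were higher and 3 lower, beside 30.4% and 29.1% of all tested genes. ERRFI1 (MIG6), a feedback inhibitor that binds the EGFR kinase, rose from 41.6 ± 0.853 to 73.0 ± 6.59 CPM (SD, n = 3), which in the fit was 0.81 on the log2 scale, and CBLB, a ubiquitin ligase for active receptors, rose from 9.23 ± 2.39 to 24.2 ± 4.59 CPM (1.38 on the log2 scale). LRIG1, a membrane protein that promotes receptor breakdown, fell from 429 ± 76.5 to 190.1 ± 10.1 CPM (-1.18 on the log2 scale, adjusted p = 2.40e-04). CBLC fell by 0.45 on the log2 scale, a call lost without both libraries numbered 1 (adjusted p = 0.109) or 2 (adjusted p = 0.0513).

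The adaptors split evenly, with 3 of 10 higher and 3 lower. Of all tested genes 30.4% were higher and 29.1% lower, the shares that stand beside each list of this paragraph. GAB2 and GAB1, docking proteins that recruit PI3K, rose with log2-fold changes of 1.07 and 0.60, while SRC and SHC1 fell with changes of -0.52 and -0.46. In the RAS-MAPK core 1 of 10 was higher (BRAF, 0.51) and 4 were lower, HRAS (-0.78) and MAP2K2 (-0.55) having the smallest p among them. In the PI3K-AKT list 3 of 12 were higher and 7 lower, beside the same shares of all tested genes. PIK3CD, a catalytic subunit, rose from 3.06 ± 0.375 to 12.2 ± 0.124 CPM (SD, n = 3) and PIK3R1, a regulatory subunit, had a log2-fold change of 0.55, while PIK3CB and AKT1 fell with changes of -0.69 and -0.52. Without both libraries numbered 1, the calls of SRC, SHC1, HRAS, MAP2K2, PIK3R1 and AKT1 were lost, with adjusted p between 0.0516 (AKT1) and 0.0718 (SHC1), and that of PIK3R1 was also lost without both numbered 2 (adjusted p = 0.0518). The BRAF call was lost without normoxia replicate 2 (adjusted p = 0.0656), hypoxia replicate 2 (adjusted p = 0.0716), or both libraries numbered 1 (adjusted p = 0.0530) or 2 (adjusted p = 0.181).

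Of 16 genes that are known to respond to ERK activity, 8 were higher and 2 lower, with a median log2-fold change of 0.64. Over all tested genes 30.4% were higher and 29.1% lower. ETV4 and ETV5, among the 8, passed the filter on low counts only through their hypoxia libraries and could only be called higher. SPRED1, an inhibitor of RAS signaling, rose from 10.3 ± 1.63 to 24.3 ± 1.55 CPM (SD, n = 3), and DUSP6, the ERK phosphatase, from 2.60 ± 0.409 to 8.42 ± 2.66 CPM, or by 1.24 and 1.70 on the log2 scale. DUSP5, another ERK phosphatase, and CCND1, cyclin D1, fell by 0.77 and 0.45 on the log2 scale. The CCND1 call was lost with upper-quartile factors (adjusted p = 0.0710), without normoxia replicate 1 (0.0533), hypoxia replicate 1 (0.0606) or hypoxia replicate 2 (0.0502), and without both libraries numbered 1 (0.164) or 2 (0.104). The luminal markers moved too, 4 of 9 being lower and 0 higher in edgeR's quasi-likelihood test (5 lower and 0 higher at an unadjusted p under 0.05, and the same counts in DESeq2), beside 29.1% of all tested genes lower. With the replicate block 6 were lower and 1, CDH1, was higher. ESR1, the estrogen receptor, fell from 271 ± 26.4 to 74.6 ± 0.598 CPM, and its part in the changes of the ERBB genes was not tested.

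**Figure D4:**
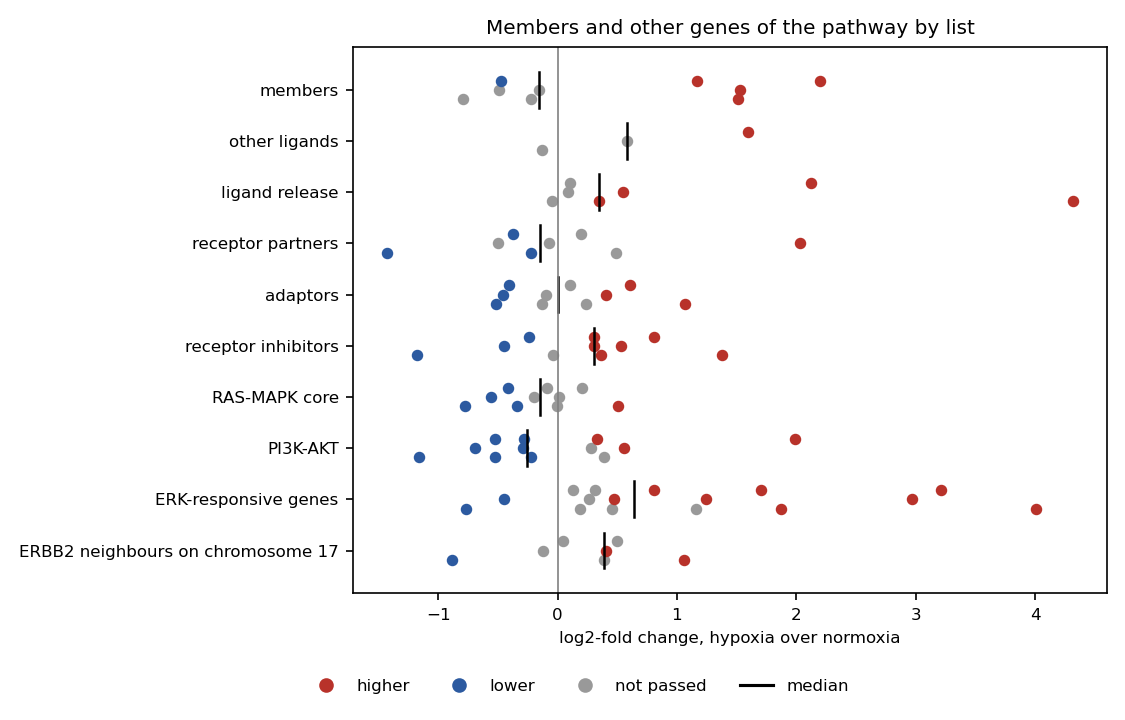
Log2-fold change (hypoxia over normoxia) of each tested member and each tested gene of the other lists, 1 point per gene, coloured by edgeR's quasi-likelihood call at an adjusted p of 0.05, with the median of each list as a black line. The members split into 4 higher genes between 1.17 and 2.20 and 5 genes between -0.79 and -0.15, of which ERBB2 was called. Ligand release (4 higher and 0 lower of 7 tested) and other ligands (1 higher and 0 lower of 3 tested) held no lower gene. Every other pathway list held both higher and lower genes.

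The genes whose log2 CPM followed that of EGFR most closely over the 6 libraries were FBXO46, NISCH and LINC00910, with Pearson correlations of 0.998, 0.997 and 0.997 among 12664 genes compared. Their log2-fold changes were 0.48, 0.39 and 1.07, all smaller than that of EGFR. For TGFA the closest were ZDHHC2, SPTAN1 and RAB6B, at 0.999 each, with changes of 1.43, 0.60 and 1.33. With 6 libraries in 2 conditions such values are common, 62 genes exceeding 0.99 for EGFR and 214 for TGFA, and they are a description only.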

How the data were processed

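Counts per gene were used as deposited. These raw counts were made by the authors, who trimmed with Skewer, mapped with STAR 2.5.2a (GRCh37) and assigned reads to RefSeq genes with featureCounts 1.5.1. The versions are those of the submitters' processing notes. Groups and replicate numbers came from the labels of the libraries. Here, genes were kept by edgeR's filterByExpr (minimum count 10, minimum total 15) and tested with edgeR 4.0.16 (quasi-likelihood test, R 4.3.3) on all 6 libraries, with TMM factors and condition as a single term, at a Benjamini-Hochberg adjusted p of 0.05 over 15657 genes. CPM values use TMM factors, and levels between genes are CPM per kilobase of the counted exon length.

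The study's methods call the samples paired without naming pairs. Same-numbered libraries varied in the same direction around their condition means (correlations across genes of 0.338, 0.422 and 0.575). The replicate number was therefore also fitted as a block. Because both libraries numbered 3 stood apart, these correlations cannot show whether the libraries numbered 1 and 2 were pairs.

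Alternatives were DESeq2 1.42.0, edgeR's exact test (the study's test), other size factors, no filter, the block, and leaving out libraries. The members and lists were chosen with earlier results of these data known. Named pathway genes were up to 2 each way per list with the smallest p and a mean of at least 100 counts. ADAM10, ADAM12, CDC37, MUC4, EGF, EPGN, ESR1, VIM, GSDMB, CDK12, CD44, ERBIN, CD9 and CDH1 were named after their values were seen. So were ETV4, ETV5, COL1A1 and the other basal or mesenchymal-like markers, LGALS1 and KRT17 among them. Plots were drawn with matplotlib 3.10.9.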

Additional observations from a re-analysis of the deposited data

How the results depend on the processing

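Over 15 alternatives, EGFR, TGFA and HBEGF kept their direction and their call, and the count of higher members stayed between 3 and 4. With upper-quartile factors the median change over tested genes moved up by 0.16 (log2), with 5972 genes higher and 3285 lower (64.5% of calls higher, against 51.1%) and 14 lower pathway genes against 23, while ERBB2 stayed lower at -0.31 (adjusted p = 0.0355), ERBB3 was at -0.07 (adjusted p = 0.638) and AREG turned to 0.001. The replicate block gave 4 lower members against 1 and changed no other call among the members. Leaving out a library or a numbered pair gave 2648 to 5751 higher and 2191 to 5506 lower genes, 3 to 4 higher and 0 to 4 lower members, and 16 to 37 higher and 6 to 25 lower pathway genes. In these fits AREG ranged from -0.46 to 0.09, turning positive without normoxia replicate 1 (0.009), normoxia replicate 2 (0.029) or hypoxia replicate 3 (0.093). The cause was not tested. The lowest counts of called genes came without both libraries numbered 1. NRG1 was too low to test at this depth.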
